A study of Mus musculus with 20 samples.

Results

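Ppara mRNA varied among mouse livers in which it was not targeted, and the genes whose levels went with it in 12 such livers are described here. The 12 arrays, of 20 in all, are those of 3 groups of 4 mice, lettered A to D within each group. Ringer's solution alone was the vehicle of one group. The others received 40 µg of a control siRNA, named GL3 or SEAP-M after the reporters they target (GL3 is a firefly luciferase and SEAP a secreted alkaline phosphatase), and what the suffix M stands for is not given in the labels. Injection was hydrodynamic, a rapid large-volume injection into the tail vein that carries nucleic acid into hepatocytes, and livers were taken 48 h later. Liver RNA of each mouse was hybridised on a 2-colour oligonucleotide array against a pool of RNA from 4 vehicle mice, and each value is a log10 ratio, read here as mouse to pool. The labels give no strain, sex or age, and do not say whether the pooled mice are those of the vehicle group. The remaining 8 arrays, of mice given a Ppara siRNA named PPARa or PPARa-M, took no part in choosing genes and serve as a second set. Every ratio shares the pool, but no mouse is in both sets.

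PPARα, the protein made from Ppara, is a nuclear receptor of hepatocytes that binds fatty acids, pairs with a retinoid X receptor and turns on genes of fatty acid uptake, mitochondrial and peroxisomal oxidation and ketone production. The receptor is known to rise in fasting and to follow the daily feeding rhythm. Its mRNA level is only one of the things that set its activity, since ligand and partner receptors act on it too.

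That the ratio runs mouse over pool is likely, not stated. The array titles name the pool first, and Ppara stood lower in the arrays labelled as Ppara siRNA than in the others. A correlation between 2 genes is the same in either direction, but levels are not: with the ratio turned, every higher reads lower, and the highest Ppara value of the 12 livers (SEAP-M mouse A) would be the lowest, at 57.3% of the pool, with the other 11 between 86.0% and 111%. Ratios to a pool of the same tissue give no absolute level, so that the liver origin of the RNA could not be checked against hepatocyte markers here. Array medians of the 12 lay between -0.0044 and 0.0060.

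**Figure D1:**
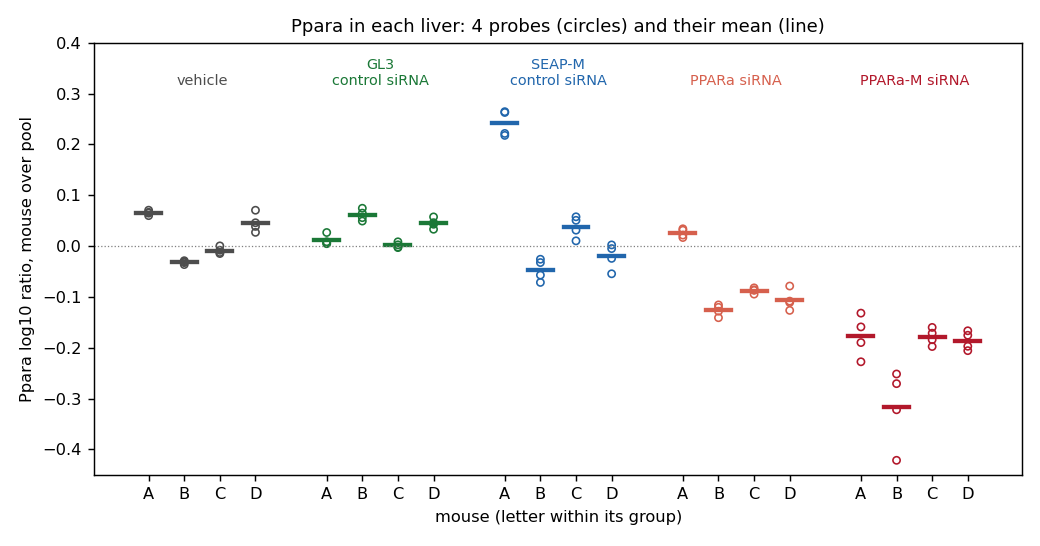
Ppara in the livers of 20 mice, as the log10 ratio, read as mouse to pool. Circles are the 4 Ppara probes, the line is their mean, and letters name the mice within a group. SEAP-M mouse A stood at 0.242, above the other 11 livers without Ppara siRNA, which lay between -0.0468 and 0.0653.

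Ppara ranged from 89.8% to 174% of the pool in the 12 livers, and a single mouse held much of that range. With vehicle it was 116% of the pool in mouse A, 92.8% in B, 98.0% in C and 111% in D. With GL3 siRNA it was 103% in A, 115% in B, 100.3% in C and 111% in D. With SEAP-M siRNA it was 174% in A, 89.8% in B, 109% in C and 95.4% in D. The 3 groups overlapped throughout, and SEAP-M mouse A stood alone above the rest. On the log10 scale the group means were 0.0174 ± 0.0456 (SD, n = 4) with vehicle, 0.0296 ± 0.0279 (SD, n = 4) with GL3 and 0.0529 ± 0.131 (SD, n = 4) with SEAP-M. Exact permutation tests (2-sided) gave p = 0.829 for SEAP-M against vehicle, p = 0.686 for GL3 against vehicle and p = 0.914 for SEAP-M against GL3, where 4 mice against 4 cannot go below 0.0286. Of the sum of squares of Ppara, 95.8% lay within the groups and 69.6% was the deviation of SEAP-M mouse A from the mean. Pairs of the 4 Ppara probes had Pearson correlations of 0.941 to 0.987 over the 12 arrays. Without SEAP-M mouse A the lowest was 0.824. Each probe put this mouse highest, and the order of the others differed between probes.

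SEAP-M mouse A also differed from the others in measures unrelated to Ppara. Its array had the widest spread of ratios of the 12, with an interquartile range of 0.0852 on the log10 scale, where the other 11 lay between 0.0442 and 0.0657. It was the highest or the lowest of the 12 arrays in 5094 of 15251 genes (33.4%), a share that was not counted for the other arrays. The correlation of Ppara with the interquartile range of the array was 0.658 over the 12 arrays and -0.228 without this array. Results are therefore also given without it, and what set this liver apart was not tested.

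The question asked of each gene was whether its level followed that of Ppara across the livers. Each gene's log2 ratio, the mean of its probes, was regressed on that of Ppara, and the slope is the log2 change of the gene for each doubling of Ppara. None of the 15251 genes passed limma at an adjusted p under 0.05, in either direction (0% of genes), and the smallest adjusted p was 0.0522. With 1 mean per group removed the count was again 0 (0%), with a smallest adjusted p of 0.180. At an unadjusted p under 0.05, 2071 genes (13.6%) had a slope over the 12 arrays, 1075 of them positive (7.05% of genes) and 996 negative (6.53%), and 2044 genes (13.4%; 6.97% positive and 6.43% negative) had one with group means removed. Without SEAP-M mouse A these counts were 822 (5.39%; 2.64% positive and 2.75% negative) and 506 (3.32%; 1.63% and 1.69%), again with 0 genes past limma's adjusted threshold, and the smallest adjusted p was 0.806 with group means kept. Without SEAP-M mice A and B, whose Ppara lay farthest from the median of the 12, the count was 613 (4.02%; 1.94% and 2.08%). In 1869 of the 2071 genes this mouse was the highest or the lowest of the 12, and 157 of the 2071 had an unadjusted p under 0.05 with the same sign when it was left out. No gene named below therefore passed correction over all genes, and what follows describes the genes and gene groups that lay closest to Ppara in these livers.

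**Figure D2:**
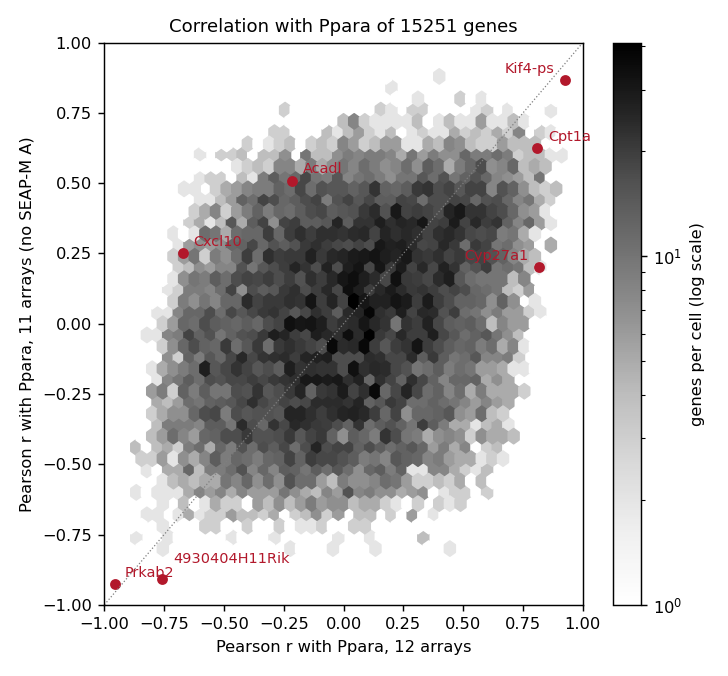
Pearson's r with Ppara for 15251 genes, over the 12 livers on the x axis and over 11 livers, without SEAP-M mouse A, on the y axis; shading is the number of genes on a log scale and the dotted line marks equal values. Prkab2 (-0.955 and -0.926) and Kif4-ps (0.926 and 0.867) lie near the line, whereas Cyp27a1 (0.817 and 0.202) and Cxcl10 (-0.673 and 0.251) lie far from it.

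Cpt1a, the carnitine palmitoyltransferase that lets long-chain fatty acids enter mitochondria and a classical PPARα target, had a positive r with Ppara in these untargeted livers. Its log10 ratio was 0.0216, -0.0188, 0.0166 and -0.0009 in vehicle mice A to D, -0.0413, 0.0312, -0.0132 and -0.0114 in GL3 mice A to D, and 0.0600, -0.0265, 0.00324 and -0.0187 in SEAP-M mice A to D. The highest value was that of SEAP-M mouse A, which had the most Ppara, and the lowest was that of GL3 mouse A, near the middle of the Ppara range. Pearson's r was 0.810 (permutation p = 0.00144) and Spearman's rho 0.776 (permutation p = 0.00406) over the 12 arrays. The r was 0.842 with group means removed (exact permutation p = 0.00383), 0.624 without SEAP-M mouse A and 0.565 without both arrays farthest from the median Ppara level, SEAP-M mice A and B. The slope was 0.30 ± 0.09 (SE), or 1.23-fold for each doubling of Ppara, with a limma adjusted p of 0.244. Without SEAP-M mouse A the slope had a limma unadjusted p of 0.0845. The r of its 5 probes ranged from 0.0963 to 0.663 over the 12 arrays and from 0.238 to 0.486 without this mouse.

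Acadl, long-chain acyl-CoA dehydrogenase of mitochondrial β-oxidation, did not go with Ppara over the 12 livers, and its r changed sign when 1 mouse was left out. Its log10 ratio was -0.0154, 0.00657, -0.0368 and 0.0495 in vehicle mice A to D, 0.0147, -0.000367, -0.0473 and 0.00687 in GL3 mice A to D, and -0.0628, -0.0391, 0.0134 and -0.0298 in SEAP-M mice A to D. Acadl was thus lowest in the liver with the most Ppara. The r was -0.217 (permutation p = 0.516), rho 0.119 (permutation p = 0.718) and the slope -0.09 ± 0.13 (SE), with an adjusted p of 0.817. Without SEAP-M mouse A the r was 0.509, with a limma unadjusted p of 0.125 for the slope. The r was 0.402 without the 2 farthest arrays. Of its 3 probes, 1 had an r of -0.639 over the 12 arrays and the others had 0.109 and 0.168.

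Over the 32 measured PPARα target genes, the median r was 0.06 over the 12 arrays, -0.02 without SEAP-M mouse A, and 0.03 and 0.03 over all genes. At an unadjusted p under 0.05, 4 targets had a positive slope and 1 a negative one, where 7.05% and 6.53% of all genes did so, and 0 passed without SEAP-M mouse A. The positive ones were Cpt1a, Eci1 (an enoyl-CoA isomerase of β-oxidation; slope 0.36 ± 0.13), Acadvl (very-long-chain acyl-CoA dehydrogenase; 0.33 ± 0.13) and Fads2 (the Δ6 fatty acid desaturase; 0.27 ± 0.12). Without SEAP-M mouse A the r of Eci1 was 0.391, that of Acadvl -0.290 and that of Fads2 -0.022. The negative one was Cd36, a fatty acid transporter of the cell surface, with a slope of -0.82 ± 0.18 and an r of -0.807, which was -0.410 without this mouse. Its 5 probes agreed in sign over the 12 arrays, with r between -0.820 and -0.745. Cyp4a12a, a fatty acid ω-hydroxylase, had an r of 0.523 and 0.469 without the mouse. Its relatives Cyp4a10 and Cyp4a14, which are strongly induced by PPARα agonists, had r of -0.07 and -0.14. The limma adjusted p of these genes was 0.169 or more.

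**Figure D3:**
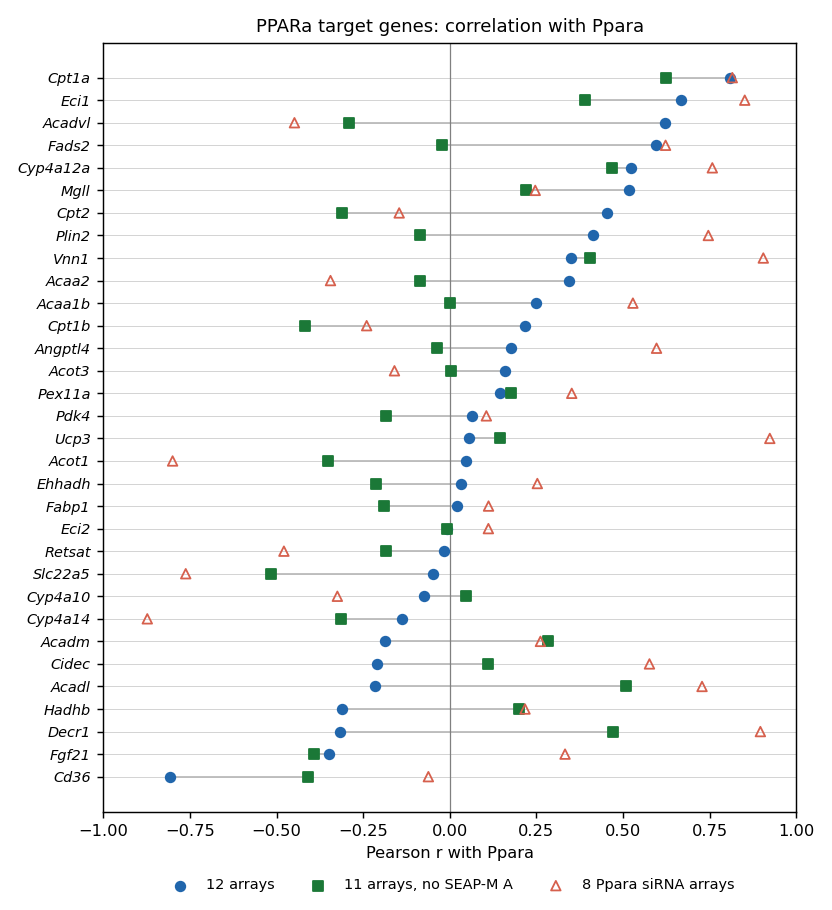
Pearson's r with Ppara for the 32 PPARα target genes measured, over the 12 livers without Ppara siRNA (circles), over 11 of them without SEAP-M mouse A (squares) and over the 8 livers with Ppara siRNA (open triangles). Cpt1a stands at 0.81, 0.62 and 0.82, Acadl at -0.22, 0.51 and 0.73, and Cd36 at -0.81, -0.41 and -0.06.

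The gene nearest to Ppara in these livers was Prkab2, and it ran opposite to it. Prkab2 encodes a β subunit of the AMP-activated protein kinase, the energy sensor that favours fatty acid oxidation when ATP runs low. Its log10 ratio was -0.0282, 0.0302, 0.0208 and -0.0407 in vehicle mice A to D, -0.0059, -0.0349, 0.0011 and -0.0333 in GL3 mice A to D, and -0.102, 0.0150, -0.0158 and 0.0149 in SEAP-M mice A to D. In every group the mouse with the most Ppara had less Prkab2 than the mouse with the least. The r was -0.955 and rho -0.916, with r = -0.958 when group means were removed, -0.926 without SEAP-M mouse A and -0.950 without both farthest arrays. Leaving out any 1 array left r between -0.97 and -0.93. The changes were small: the slope was -0.46 ± 0.08 (SE), 0.727-fold for each doubling of Ppara, and the adjusted p was 0.163. A single probe measured it. Prkab2 was chosen by these correlations as an extreme of 15251 genes, so that they are a description, and the adjusted p over all genes is its test.

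Genes near Ppara were ranked by a likeness, the r smallest in size among those over the 12 arrays, with group means removed, and without the 2 farthest arrays, where all 3 have 1 sign. These r chose the genes and are given as a description. The 12 genes of lowest likeness, between -0.950 and -0.686, were Prkab2, Slc36a1os, Slc18b1, 4930404H11Rik, Iqcm, 2700008G24Rik, Hsd17b6, Ppp2r3c, Mrps25, Nr2f1, Add2 and Ywhab. Several have known roles in liver or signalling. Hsd17b6 is a hydroxysteroid dehydrogenase of androgen metabolism (slope -0.52 ± 0.15, r -0.739, and -0.732 without SEAP-M mouse A), Ywhab a 14-3-3 adaptor protein (-0.29 ± 0.10, r -0.770 and -0.706), Ppp2r3c a regulatory subunit of protein phosphatase 2A, Nr2f1 the orphan nuclear receptor COUP-TFI, Mrps25 a protein of the mitochondrial ribosome, Add2 the β subunit of adducin in the membrane skeleton and Slc18b1 a vesicular polyamine transporter. The uncharacterised transcript 4930404H11Rik had a log10 ratio of -0.0654, 0.0545, 0.0142 and -0.0245 in vehicle mice A to D, -0.0091, -0.0172, -0.0069 and -0.0726 in GL3 mice A to D, and -0.0773, 0.104, -0.0316 and 0.0532 in SEAP-M mice A to D. Its r was -0.759 over the 12 arrays and -0.910 without SEAP-M mouse A, whose value lay close to those of GL3 mouse D and vehicle mouse A despite its higher Ppara. Adjusted p-values of the 12 were 0.163 to 0.322.

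The 12 genes of highest likeness, between 0.726 and 0.824, were mostly genes not known for a liver function. They were Kif4-ps, Wnt3a, 1700006J14Rik, Serpinb5, Jup, Vmn2r104, Thyn1, Wfikkn1, Olfr888, H2-T24, Vmn1r47 and Zfp27. Vmn2r104, Vmn1r47 and Olfr888 are receptors of the vomeronasal and olfactory epithelia, Wnt3a is a secreted ligand, Serpinb5 is an epithelial serpin and Jup is plakoglobin of cell junctions. Kif4-ps is annotated as a pseudogene of a kinesin, and its probe may read its parent or the other members of the family, as may those of the receptor genes and of H2-T24, a major histocompatibility class I gene. Kif4-ps had an r of 0.926 (rho 0.916), 0.867 without SEAP-M mouse A, and a slope of 0.65 ± 0.10. Each of the 12 rests on a single probe. Their standard deviations over the 12 arrays, 0.07 to 0.19 on the log2 scale, lay about the median of all genes, 0.14, so that their ratios varied little. Adjusted p-values were 0.101 to 0.328.

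Promoters of Ppara and of 3 genes that lay near it are shown, so that the half-site AGGTCA, to which nuclear receptors of the PPAR family bind in pairs spaced by 1 base, can be looked for. They are RefSeq windows of the build GRCm38.p6, 250 bases before to 50 after the annotated start of each gene, all on the plus strand, written 5′ to 3′. Capitals mark the half-site on either strand. The windows are chr15:85735526-85735825 for Ppara, chr19:3323051-3323350 for Cpt1a, chr3:97657962-97658261 for Prkab2 and chr12:71540357-71540656 for 4930404H11Rik.
Ppara: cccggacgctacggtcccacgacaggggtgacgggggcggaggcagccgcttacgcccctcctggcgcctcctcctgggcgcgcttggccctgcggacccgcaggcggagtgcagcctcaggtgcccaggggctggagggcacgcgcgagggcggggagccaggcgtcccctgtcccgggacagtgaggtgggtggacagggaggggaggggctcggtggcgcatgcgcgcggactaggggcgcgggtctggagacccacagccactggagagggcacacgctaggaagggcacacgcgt
Cpt1a: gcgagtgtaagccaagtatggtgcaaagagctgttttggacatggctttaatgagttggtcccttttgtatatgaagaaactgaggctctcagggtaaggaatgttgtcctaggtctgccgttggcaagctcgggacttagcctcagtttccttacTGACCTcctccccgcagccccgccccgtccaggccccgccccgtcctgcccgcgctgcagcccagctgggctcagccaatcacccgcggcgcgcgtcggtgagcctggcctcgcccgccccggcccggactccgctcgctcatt
Prkab2: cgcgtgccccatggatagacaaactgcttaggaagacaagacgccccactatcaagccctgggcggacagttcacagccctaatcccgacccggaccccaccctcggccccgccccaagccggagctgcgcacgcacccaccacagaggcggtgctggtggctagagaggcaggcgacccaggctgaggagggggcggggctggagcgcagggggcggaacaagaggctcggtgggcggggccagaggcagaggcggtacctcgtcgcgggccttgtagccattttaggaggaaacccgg
4930404H11Rik: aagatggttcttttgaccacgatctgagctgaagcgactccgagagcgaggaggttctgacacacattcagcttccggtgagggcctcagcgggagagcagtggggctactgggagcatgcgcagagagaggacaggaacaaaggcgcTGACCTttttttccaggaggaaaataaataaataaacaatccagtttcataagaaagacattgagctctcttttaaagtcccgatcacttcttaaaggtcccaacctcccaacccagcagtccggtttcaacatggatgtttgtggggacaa
The half-site was present in Cpt1a and 4930404H11Rik, in both on the minus strand and so printed as TGACCT, and its letters were not in the windows of Ppara and Prkab2. Of all 32851 windows 16.3% held it, and of 27025 genes 18.1% had it in a window. Among genes with a window it was in 3 of 10 of the lowest likeness (4930404H11Rik, Slc18b1 and Slc36a1os), in 1 of 10 of the highest (Zfp27), and in 8 of 24 PPARα targets (33.3%). The full pair AGGTCANAGGTCA was in 0.0396% of windows and in none of these genes, and the clock gene motif CACGTG was in 7.15% of windows and in none of the genes of highest and lowest likeness. A match of letters is not a site.

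In the 8 livers with Ppara siRNA, Ppara stood between 48.3% and 106% of the pool. The genes of lowest and highest likeness were correlated with Ppara there too. The array labelled PPARa siRNA mouse A goes against its label, with Ppara at 106% of the pool, and values without it are given beside the others. Of the 12 lowest, 11 had a negative r over the 8, between -0.793 and 0.0872, and 8 of 12 did with siRNA means removed. Of the 12 highest, 7 had a positive r, between -0.885 and 0.726, and 6 of 12 did with siRNA means removed. Without PPARa siRNA mouse A the counts were again 11 and 7. Over all genes the median r was 0.11 over the 8 and 0.13 without that mouse. The shares of all genes with a negative or a positive r were not counted, so that the counts of signs have nothing to be set against. Prkab2 had an r of -0.661 (exact permutation p = 0.0995), which was -0.165 without this array (exact permutation p = 0.735), so that its value over the 8 rested on that mouse. The r was for 4930404H11Rik -0.768 (exact permutation p = 0.0244), Hsd17b6 -0.793 (exact permutation p = 0.0159) and Add2 -0.765 (exact permutation p = 0.0209). Without the array they were -0.870, -0.727 and -0.770 (exact permutation p = 0.00992, 0.0585 and 0.0313). Thyn1 had 0.726 (exact permutation p = 0.0303) and Wfikkn1, which encodes an inhibitor of growth differentiation factors, had -0.885 (exact permutation p = 0.000521), opposite to its r of 0.816 in the 12 livers, and without the array these were 0.677 and -0.887. Spearman's rho over the 8 was -0.714 for Prkab2, -0.905 for 4930404H11Rik, -0.619 for Hsd17b6, -0.786 for Add2, 0.905 for Thyn1 and -0.929 for Wfikkn1 (exact permutation p = 0.0576, 0.00456, 0.115, 0.0279, 0.00456 and 0.00223). Such values were common: of all 15251 genes, 1740 had an r of at least 0.7 over the 8 and 1313 one of at most -0.7. The permutations took both siRNAs together, so that a difference between the siRNAs enters r and p. With siRNA means removed, limma's adjusted p in the 8 livers was 0.453 or more for the 12 genes of lowest likeness and 0.467 or more for the 12 of highest. Prkab2 was -0.119 in PPARa siRNA mouse A, lower than in any of the 12 livers, and between -0.0565 and 0.0065 in the other 7 mice, whose Ppara was lower.

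Cpt1a and Acadl both had a positive r with Ppara in the siRNA livers. Cpt1a had an r of 0.815 (exact permutation p = 0.0162) and a rho of 0.643 (exact permutation p = 0.0962), and Acadl an r of 0.728 (exact permutation p = 0.0401) and a rho of 0.714 (exact permutation p = 0.0576). Leaving out PPARa siRNA mouse A gave Acadl an r of 0.930 (exact permutation p = 0.00536), and Cpt1a one of 0.834 (exact permutation p = 0.0565). With siRNA means removed the r of Cpt1a was 0.765 and that of Acadl 0.559. With a mean for each siRNA removed, limma called 0 genes in the 8 livers (0%), with a smallest adjusted p of 0.399 and 1657 genes (10.9%; 5.88% positive and 4.98% negative) at an unadjusted p under 0.05. The slope of Cpt1a on Ppara was 0.58 ± 0.23 in the 8 livers, 0.26 ± 0.21 more than in the 12, a difference with an adjusted p of 0.603. For Acadl the difference was 0.36 ± 0.25 with an adjusted p of 0.551. A p above the threshold does not show that the slopes are alike.

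**Figure D4:**
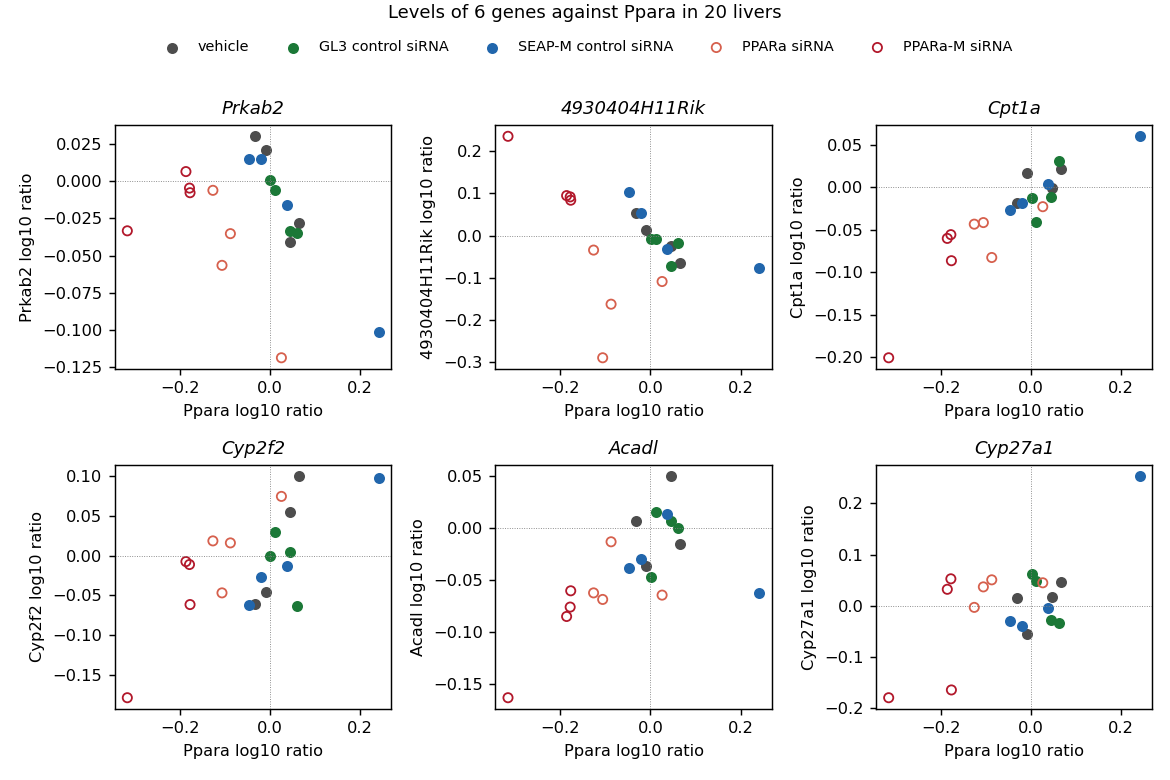
Log10 ratios of 6 genes (y axes) against that of Ppara (x axes) in 20 livers; filled points are the 12 without Ppara siRNA and open points the 8 with it. Among the filled points Prkab2 and 4930404H11Rik are lower where Ppara is higher, with r of -0.955 and -0.759, Cpt1a and Cyp2f2 are higher, with 0.810 and 0.701, Acadl has no single course, and Cyp27a1 stands at 0.253 in SEAP-M mouse A and at 0.062 or less in the other 11.

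The slopes differed between the 8 and the 12 livers at an adjusted p under 0.05 in 1 gene of 15251 (0.00656%), 1700001G01Rik, a transcript of no known function, and 1968 genes (12.9%; 5.75% with the higher and 7.15% with the lower slope in the 8) had an unadjusted p under 0.05. Its slope was 3.53 higher in the 8 livers, with an adjusted p of 0.0385. It was 0.401 in PPARa siRNA mouse A, between -0.249 and 0.121 in the other 7 siRNA mice and between -0.164 and 0.125 in the 12 livers. This call rests on few arrays: with each of the 20 left out in turn, the gene passed in 7 cases and missed in 13. Without SEAP-M mouse A no gene passed, with a smallest adjusted p of 0.256 by limma. Without PPARa siRNA mouse A, the array that goes against its label, 467 genes had different slopes.

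Genes named from the lists below were mostly picked for their correlation over the 12 arrays, which is therefore given as a description, with limma's adjusted p over all genes as the test. Several xenobiotic and bile acid genes stood highest in the liver with the most Ppara, and few kept a slope without it. Of 26 drug-metabolizing P450 genes, 7 had a positive slope and 2 a negative one at an unadjusted p under 0.05, and of 15 genes of bile acid synthesis and transport 4 and 0, where 7.05% and 6.53% of all genes did so. Their median r was 0.28 and 0.32 over the 12 arrays, and 0.11 and -0.02 without SEAP-M mouse A, where 1 and 0 genes were left, against 2.64% of all genes with a positive and 2.75% with a negative slope. Cyp27a1, the sterol 27-hydroxylase of bile acid synthesis, had a log10 ratio of 0.253 in this mouse and between -0.0561 and 0.0620 in the other 11. Cyp1a2, which oxidises caffeine and many drugs, had 0.317 against -0.0526 to 0.0613, and Abcb11, the bile salt export pump, 0.196 against -0.0652 to 0.0853. This mouse was above all others in each of the 3. Their slopes were 0.90 ± 0.19, 0.95 ± 0.22 and 0.65 ± 0.19, with r of 0.817, 0.786 and 0.703, which were 0.202, -0.165 and -0.124 without it. Slco1a1, an organic anion uptake transporter, had r = 0.654 and 0.425 without this mouse.

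Cyp2f2, a P450 that oxidises naphthalene, had a positive r with Ppara, and Cyp2b9 and Cyp2b13, of the phenobarbital-inducible family, a negative one, both over the 12 livers and over the 8 with siRNA. The r of Cyp2f2 was 0.701 (rho 0.636), 0.599 without SEAP-M mouse A, 0.524 without both farthest arrays and 0.885 over the 8 siRNA livers (exact permutation p = 0.00809). That of Cyp2b9 was -0.599 (rho -0.559), -0.480, -0.542 and -0.845 (exact permutation p = 0.00965), and that of Cyp2b13 -0.653 (rho -0.524), -0.495, -0.560 and -0.883 (exact permutation p = 0.00657). Cyp2b9 and Cyp2b13 are near-identical genes whose probes may read both, so that they are not separate observations. Without PPARa siRNA mouse A the r over the siRNA livers was 0.846 for Cyp2f2 (exact permutation p = 0.0361), -0.803 for Cyp2b9 (0.0313) and -0.852 for Cyp2b13 (0.0230). Slopes were 0.54 ± 0.17, -0.97 ± 0.37 and -0.72 ± 0.24, with adjusted p-values of 0.247, 0.298 and 0.264. The permutations over the siRNA livers took both siRNAs together and siRNA means were kept, so that a difference between the siRNAs enters r and p. Of all 15251 genes, 1740 had an r of at least 0.7 over the 8 livers and 1313 one of at most -0.7.

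Nuclear receptors and their partners had a median r of 0.28, and 5 of 27 had a positive slope at an unadjusted p under 0.05, against 7.05% of all genes. The median was 0.06 without SEAP-M mouse A, with 0 positive and 1 negative. The 5 included Rxra, the usual partner of PPARα, with a slope of 0.23 ± 0.09 and an r of 0.734, and Nr1i3, the xenobiotic receptor CAR, with 0.63 ± 0.26 and 0.569. Without SEAP-M mouse A the r was 0.127 for Rxra and -0.056 for Nr1i3. The vitamin D receptor Vdr kept more, with 0.683 and 0.531. Its 6 probes ranged from 0.323 to 0.782 over the 12 arrays, but from -0.373 to 0.644 without SEAP-M mouse A. Nr2f2, the receptor COUP-TFII, had -0.353 over the 12 arrays, -0.838 without SEAP-M mouse A and -0.641 over the siRNA livers (-0.835 without PPARa siRNA mouse A).

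Some acute phase genes were higher where Ppara was higher in the 11 livers without SEAP-M mouse A. Of 23 genes, 22 had a positive r there, where 8013 of all 15251 genes had one, and the median r was 0.46. At an unadjusted p under 0.05, 7 (30.4%) had a positive slope and 0 a negative one, against 2.64% and 2.75% of all genes. These 7 were Saa2, Saa4, Orm1, Orm3, Apcs, Crp and Lcn2, genes of secreted proteins, most of which the liver makes more of in inflammation. Over the 12 arrays 2 had a positive slope, Orm1 and Itih4, against 7.05% of all genes, and the median was 0.13. Orm1, the α1-acid glycoprotein, had an r of 0.654 (rho 0.755), 0.669 without SEAP-M mouse A, and a slope of 0.80 ± 0.27 (adjusted p 0.264). Its log10 ratio was between -0.103 and 0.0789 with vehicle, -0.0872 and 0.105 with GL3 and -0.148 and 0.105 with SEAP-M, so that the groups overlapped. Orm3 and Saa2, whose probes may also read their close relatives, had r of 0.477 and 0.474 over the 12 arrays and 0.672 and 0.668 without this mouse. Genes of 1 list are not independent observations. Averaged over the 23 genes, the log2 ratio was -0.37 to 0.18 with vehicle, -0.36 to 0.40 with GL3 and -0.44 to -0.23 with SEAP-M. Without SEAP-M mouse A, log2 Ppara in SEAP-M minus vehicle was -0.091, and in SEAP-M minus GL3 -0.13. Group means were not removed from the slopes of the 11 livers, and the part of group differences in them was not tested. Neutrophil markers went the same way in these 11 livers, with a median r of 0.32 and 10 of 11 positive, against 8013 of all 15251 genes. Of these markers 0 had a slope at an unadjusted p under 0.05, and their part in the acute phase values was not tested. Averaged over these markers, the log2 ratio was -0.27 to 0.16 with vehicle, -0.17 to 0.53 with GL3 and -0.37 to -0.23 with SEAP-M.

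Cell cycle genes ran opposite to Ppara over the 12 arrays, with a median r of -0.45 and a negative r in 35 of 36 genes, where 7200 of all 15251 genes had one. Of these, 11 had a negative slope at an unadjusted p under 0.05 and 0 a positive one, against 6.53% and 7.05% of all genes, and the 11 included Ccna2, cyclin A2 (slope -1.52 ± 0.49), and Mcm3, a helicase subunit of replication (-0.84 ± 0.25). The median was -0.19 without SEAP-M mouse A, and 0 genes then had such a slope. Averaged over the 36 genes, the log2 ratio was -0.53 in this mouse and between -0.46 and 0.36 in the others. Over the siRNA livers the median r was 0.32, and 0.50 without PPARa siRNA mouse A, but with a mean for each siRNA removed 8 of 36 genes (22.2%) had a negative slope and 0 a positive one, against 4.98% and 5.88% of all genes, so that the direction there depends on whether the siRNA means are kept.

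Macrophage markers and interferon-stimulated genes were low in the liver with the most Ppara. Of 11 Kupffer cell and macrophage markers, 4 had a negative slope at an unadjusted p under 0.05 (median r -0.39), against 6.53% of all genes, among them the complement gene C1qa and the scavenger receptor Cd163, and 0 did without SEAP-M mouse A (median -0.01). C1qa had a log10 ratio of -0.182 in this mouse and between -0.0374 and 0.0785 in the other 11, and Cd163 -0.275 and between -0.0891 and 0.0944. Averaged over the 11 markers, the log2 ratio was -0.31 to 0.23 with vehicle, -0.04 to 0.32 with GL3 and -0.32 to 0.22 with SEAP-M, the lowest being that of this mouse. In RNA from whole liver, fewer cells of a type and less RNA per cell cannot be told apart. Interferon-stimulated genes had a median r of -0.25, and 3 of 30 (10%) had a negative slope and 0 a positive one at an unadjusted p under 0.05, near the 6.53% of all genes. Of these, Cxcl10 and Rsad2 had log10 ratios of -0.627 and -0.440 in this mouse and -0.177 to 0.178 and -0.190 to 0.110 in the others. Without it their r, -0.673 and -0.616, became 0.251 and 0.139, and the list's median 0.12, with 3 positive and 2 negative slopes. Eif2ak2, the antiviral kinase PKR, had an r of -0.332 over the 12 arrays, -0.868 without this mouse and -0.902 over the siRNA livers (-0.937 without PPARa siRNA mouse A). The part of other cells in the results was not tested.

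Erythroid and bile duct markers held the sign of their median with and without SEAP-M mouse A. So did other lists, among them acute phase genes (0.13 and 0.46) and cell cycle genes (-0.45 and -0.19). The 7 erythroid markers all had a positive r over the 12 arrays, where 8051 of all 15251 genes had one. Their median was 0.46, and 0.33 without SEAP-M mouse A. Without this mouse 3 of 7 (Slc4a1, Hbb-b2 and Epb42) had a positive slope at an unadjusted p under 0.05, against 2.64% of all genes. Over the 12 arrays 1 of 7 had one, against 7.05% of all genes. In the siRNA livers, siRNA means removed, 0 had a positive and 1 a negative one, against 5.88% and 4.98% of all genes. Slc4a1, the anion exchanger of the red cell, had an r of 0.708 (rho 0.811) and 0.669 without it, with an adjusted p of 0.231. Averaged over the 7 markers, the log2 ratio was between -0.45 and 0.17 in the 12 livers. Of 6 cholangiocyte markers only the bile duct keratins Krt7 and Krt19 had a slope at an unadjusted p under 0.05, negative with and without this mouse. Of all genes, 6.53% had a negative slope with this mouse and 2.75% without it. The r of the keratins was -0.694 and -0.650 (rho -0.692 and -0.713), and -0.597 and -0.688 without this mouse. The list's median was -0.19, with 3 of 6 genes positive, and -0.34 without this mouse, with 2 of 6 positive.

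Circadian genes changed sign with the same liver. Their median r over 21 genes was -0.13 over the 12 arrays, 0.36 without SEAP-M mouse A and 0.54 over the 8 siRNA livers, siRNA means kept. A positive slope at an unadjusted p under 0.05 was found in 2, 3 and 0 genes, against 7.05%, 2.64% and 5.88% of all genes. The slopes over the 8 had siRNA means removed. Per1, a repressor of the clock that glucocorticoids also induce, had an r of 0.720 but a rho of 0.385, and 0.541 without this mouse. Rora, an activator of the clock, had 0.810 (rho 0.524) and 0.429. Averaged over the 21 genes, the log2 ratio was -0.17 to 0.12 with vehicle, -0.11 to 0.16 with GL3 and -0.21 to -0.16 with SEAP-M. The part of group differences in these values was not tested. Time of death is not in the labels.

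**Figure D5:**
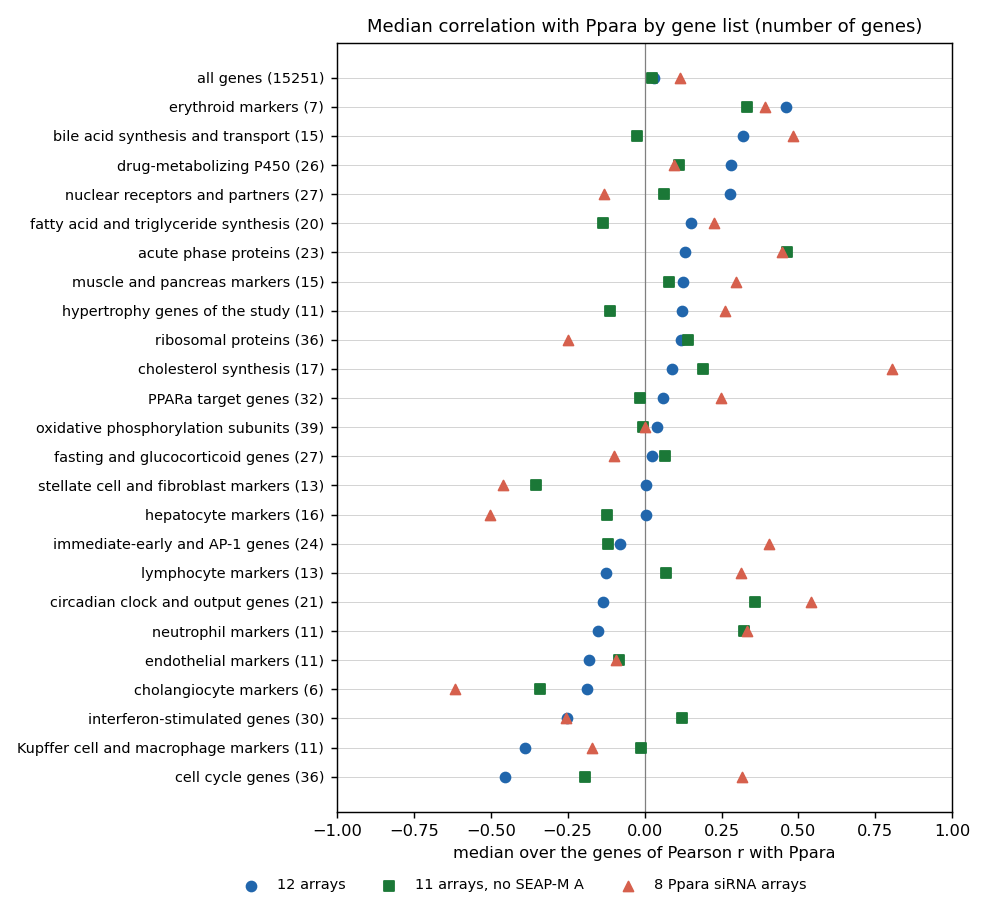
Median over the genes of a list of Pearson's r with Ppara (x axis), for 24 gene lists with their number of measured genes, and for all genes. Circles are the 12 livers without Ppara siRNA, squares 11 of them without SEAP-M mouse A, and triangles the 8 livers with Ppara siRNA. Cell cycle genes stand at -0.45, -0.19 and 0.32, and erythroid markers at 0.46, 0.33 and 0.39.

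The other lists are given by their medians, over the 12 arrays and then without SEAP-M mouse A, beside 0.03 and 0.03 for all genes. In fatty acid and triglyceride synthesis (20 genes, 0.15 and -0.14), Dgat1, the acyltransferase of the last step of triglyceride synthesis, had the only slope at an unadjusted p under 0.05, with r of 0.713 and 0.420. Medians were 0.09 and 0.19 for 17 genes of cholesterol synthesis, 0.03 and 0.07 for 27 fasting and glucocorticoid genes, 0.04 and -0.01 for 39 subunits of oxidative phosphorylation, 0.12 and 0.14 for 36 ribosomal proteins, and -0.08 and -0.12 for 24 immediate-early genes. They were 0.12 and -0.11 for 11 of the genes that the study linked to liver hypertrophy, a list chosen in part on these arrays and so no independent evidence. Among cell types they were 0.00 and -0.12 for 16 hepatocyte markers, -0.18 and -0.08 for 11 endothelial markers, and 0.12 and 0.08 for 15 muscle and pancreas markers. Leaving out this mouse turned the median of 11 neutrophil markers from -0.15 to 0.32 and that of 13 lymphocyte markers from -0.13 to 0.07. The median of 13 stellate cell and fibroblast markers then moved from 0.01 to -0.35, with 11 of 13 negative, against 7238 of all 15251 genes. In the siRNA livers, siRNA means kept, the median of the cholesterol list was 0.80 (0.75 without PPARa siRNA mouse A), so that a difference between the siRNAs enters it. With siRNA means removed, 3 of 17 genes had a positive slope at an unadjusted p under 0.05, against 5.88% of all genes.

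The smallest p-value over the 12 arrays belonged to a gene high in 1 liver alone. Chst9, a sulfotransferase, had a slope of 7.05 ± 0.91 and an adjusted p of 0.0522. Its single probe stood at 2, the limit of the deposited values, in SEAP-M mouse A, and between -0.158 and 0.124 in the other 11.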

How the data were processed

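The authors deposited log10 ratios for 23493 probes on 20 arrays, read here as mouse to pool. Their normalization, error-weighted values and platform error model could not be repeated, as no signals or errors were used here, and the values were taken as they are. In all, 15 values of the 12 arrays stand at the limit of 2 or -2. Depth does not apply to arrays, and the number of arrays limits the precision. Each array is of 1 mouse, so that p-values reflect the spread between these mice.

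Symbols came from the platform's annotation. A single symbol was given for 18790 probes, of which 18275 matched the RefSeq gene table by gene number, and no symbol differed. Probes with several symbols (65) or none (4638) were not named. Probes of a gene were averaged (15252 genes), and the log10 ratios were turned into log2.

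Each gene was regressed on Ppara (mean of 4 probes) with limma 3.58.1 in R 4.3.3, with lmFit and eBayes, and Benjamini-Hochberg adjustment over 15251 genes at 0.05. The fits took the 12 arrays, the 12 with 1 mean per group, the 8 siRNA arrays with 1 mean per siRNA, and all 20 for the difference of slopes. Pearson and Spearman correlations were computed in Python 3.11.15 (numpy 2.4.6, scipy 1.17.1, pandas 2.3.3, matplotlib 3.10.9), with two-sided permutation tests of 100000 resamples over 12 arrays (given for Cpt1a and Acadl, since most other named genes were picked by that correlation), and exact ones within groups or over 8. Group means of Ppara were compared by exact permutation tests. The slope fits were checked on simulated data.

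Named genes were Ppara, Cpt1a, Acadl, the 12 of highest and 12 of lowest likeness, up to 4 members of each list by likeness, and any gene of at most 5 that passed a count. Other genes named (among them Acadvl, Fads2, Rxra, Cyp27a1, Abcb11, Cyp1a2, Ccna2, C1qa, Cd163, Cxcl10, Rsad2 and Chst9) were chosen after their values were seen. The members and the 24 gene lists, whose results the text gives, were chosen with earlier results of these data known. Alternatives were other array scalings, array weights, robust moderation, single probes, a 1.5-fold filter, a threshold of 0.01, ranks, covariates, and arrays or groups left out. Correlations without PPARa siRNA mouse A and Ppara levels with the ratio turned were added after the data were seen.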

Additional observations from a re-analysis of the deposited data

Results flagged for a closer look

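In groups of 4, a value was singled out where its gap to the nearest of the others was a large part of the group's range by Dixon's test; chance does so in about 1 in 20 groups, and 13 of 189 groups of Ppara and the named genes were singled out. Most of the genes were picked for their correlation with Ppara or after their values were seen. These counts can therefore not be set against that rate. SEAP-M mouse A, which sets most of the range of Ppara, was the sample in 9 of the 13. Its log10 ratio was 0.253 for Cyp27a1, 0.196 for Abcb11, 0.317 for Cyp1a2, -0.627 for Cxcl10, 2 for Chst9, 0.0774 for Per1, -0.0849 for Slc18b1, -0.0368 for Saa2 and 0.0501 for Vmn2r104, where the nearest of the other SEAP-M mice stood at -0.0045, -0.0078, 0.0613, -0.136, 0.0521, 0.0074, 0.0043, -0.221 and -0.0175. The remaining 4 were 4930404H11Rik in GL3 mouse D (-0.0726, next -0.0172), Jup in vehicle mouse B (-0.0287, next 0.0081), Rxra in vehicle mouse A (0.0141, next -0.0032) and Ccna2 in vehicle mouse C (0.164, next -0.0565). Ppara itself was not singled out in any of the 3 groups.

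The slope of 1700001G01Rik on Ppara differed between the 8 siRNA livers and the 12 others by 3.53 on the log2 scale, with a limma adjusted p of 0.0385 in the test of the difference itself.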

How the results depend on the processing

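SEAP-M mouse A, whose array also has the widest spread, sets most of the range of Ppara, and its weight limits every statement over the 12 arrays; the causes of the changes below were not tested. Single probes near background could not be told from others, as no signals were used here.

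The count of genes following Ppara over the 12 arrays (0 by limma) was 1 with Ppara probe 2 alone, 3 with probe 4 alone, 2 among genes beyond 1.5-fold, 1433 over all 20 arrays, where the Ppara siRNA groups widen the range (0 with 5 group means removed), and 0 to 3 with each array left out. The genes were Chst9 with probe 2; 4930596I21Rik, Chst9 and Foxd4 with probe 4; 4930596I21Rik and Chst9 beyond 1.5-fold; Ceacam1, Chst9 and Rp1 without vehicle mouse A; Chst9, Cxcl9 and Foxd4 without GL3 mouse D; Chst9 without SEAP-M mouse B; and 4930435H24Rik without SEAP-M mouse D. With group means removed (0) it was 2 beyond 1.5-fold and 0 to 1 with each array left out (Cxcl9, without GL3 mouse D). In the 8 siRNA arrays (0) it was 1 with probe 4 alone (1700001G01Rik) and 0 to 1 with each array left out (Mtmr4, without PPARa siRNA mouse A).

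At an unadjusted p under 0.05 the 2071 genes became 725 with quantile normalization, 670 with equal interquartile ranges, 510 with array weights, 3155 probes in place of genes, 315 beyond 1.5-fold, 961 by ranks, 1319 with the interquartile range as covariate, 613 without the 2 farthest arrays, 465 without the SEAP-M group, 4146 over all 20 arrays and 822 to 2288 with each array left out, the lowest without SEAP-M mouse A. With group means removed the 2044 genes became 829, 757, 745, 3125, 286, 1049, 1135, 586 and 450 under the same alternatives but all 20 arrays, and 506 to 2284.

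Letters did not pair the mice: deviations from group means of same-letter arrays correlated at -0.205 to 0.301 (12 pairs, 4 above 0.1), other pairs at -0.373 to 0.368, and 3 arrays correlated best with their own letter. With the letter as a replicate block the adjusted counts were 0, 0, 0 and 1, and the unadjusted ones over the 12 arrays 900 and 874.

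The count of differing slopes (1) was 0 with quantile normalization, probes, probe 2, ranks, the interquartile range as covariate or a threshold of 0.01, 9 with array weights or probe 4, 121 with probe 1, 3 with probe 3 and 0 to 467 with each array left out (467 without PPARa siRNA mouse A, 11 without PPARa-M mouse B). With equal interquartile ranges it was 1, V2r1 in place of 1700001G01Rik.

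Ppara in SEAP-M minus GL3 was -0.0012 with probe 1 alone. With each array left out, the log2 differences were -0.014 to 0.094 for GL3 minus vehicle, -0.13 to 0.19 for SEAP-M minus GL3 and -0.091 to 0.23 for SEAP-M minus vehicle.

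Of 1136 slopes of 62 named genes under the alternatives, 26 changed sign. The slope of Acadl was 0.030 with equal interquartile ranges, 0.094 with array weights, 0.045 by probes, 0.12 by ranks, 0.15 with the covariate, 0.33 without the 2 farthest arrays and 0.25 without the SEAP-M group. Without the 2 farthest arrays it was -0.26 for Acadvl, -0.081 for Fads2, -0.48 for Nr1i3, -0.19 for Abcb11, -0.23 for Cyp1a2, -0.010 for Cyp2c38, 0.19 for Ccna2, 0.16 for C1qa, 0.58 for Rsad2 and 0.76 for Cxcl10. Without the SEAP-M group it was -0.10 for Fads2, -0.49 for Nr1i3, -0.065 for Cyp27a1, -0.29 for Abcb11, -0.13 for Cyp1a2, -0.15 for Cyp2c38, 0.26 for C1qa, 0.20 for Rsad2 and 0.57 for Cxcl10. With each array left out, 9 of 744 slopes changed sign, all without SEAP-M mouse A: Acadl -0.15 to 0.39, Acadvl -0.18 to 0.40, Fads2 -0.015 to 0.31, Nr1i3 -0.093 to 0.74, Abcb11 -0.12 to 0.70, Cyp1a2 -0.14 to 1.03, Cd163 -1.07 to 0.11, Rsad2 -1.38 to 0.36 and Cxcl10 -2.01 to 0.73.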

Other observations

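Genes that differ between the sexes in mouse liver were looked at after their values were seen, and they get no test; the sex of the mice is not in the labels. The 14 male-biased genes had a median r with Ppara of 0.41 over the 12 arrays, 0.30 without SEAP-M mouse A and 0.73 over the 8 siRNA livers. Over the 12 arrays 12 of 14 had a positive r, against 8051 of all 15251 genes. Without SEAP-M mouse A 9 of 14 did, against 8013. The list holds Slco1a1 and Cyp4a12a, which other lists also hold. The 17 female-biased genes had medians of 0.14, -0.05 and -0.11. Over the 12 arrays 8 of 17 had a negative r, Cyp2b9, Cyp2b13 and Cd36 among them, against 7200 of all 15251 genes. Over all genes the medians were 0.03, 0.03 and 0.11.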
